A study of Mus musculus with 69 samples.

Results

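The Hox cluster genes encode homeodomain transcription factors that give cells along the body axis their position, and in mouse they sit in 4 clusters, HoxA on chromosome 6, HoxB on chromosome 11, HoxC on chromosome 15 and HoxD on chromosome 2. A paralog number from 1 to 13 gives a gene's place in its cluster: low numbers are used early and towards the head, high numbers later and towards the tail. Polycomb repressive complex 2 (PRC2), of which Ezh2 is the catalytic subunit and Suz12 a core subunit, places the mark H3K27me3 on nucleosomes, Ring1B belongs to Polycomb repressive complex 1, and silent Hox clusters are classic targets of both. The 38 genes described here were taken from a list of names looked up in 3 expression tables that together held 15924 genes. Of the 38, 15 had a row in the table of DMSO and GSK343 libraries, 12 in that of wild-type and mutant libraries and 31 in that of replated cells, with 34 in at least 1 table and 8 in all 3. Hoxa13, Hoxc11, Hoxc12 and Hoxd12 had no row in any table, so they appear only in the peak results.

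The samples were CJ7 mouse embryonic stem (ES) cells, an established line kept on fibroblast feeders with LIF and serum, and embryoid bodies grown from them in hanging drops for 4 or 8 days. One set received GSK343, a small-molecule inhibitor of the EZH2 catalytic activity, at 4 µM from 3 days before differentiation to the end, or its solvent DMSO (2 libraries per group). A second set compared wild-type cells with cells labelled EZH2 mutant, whose allele and clone number the labels do not give (3 libraries per group). Another set took embryoid bodies grown in DMSO or in GSK343 and placed them in ES cell medium for 5 days in DMSO or GSK343 (3 libraries per group, with 2 analysed for cells in GSK343 throughout). For these replated cells the labels give an age of 14 days and a first treatment begun 3 days before differentiation. Nothing in the labels says that replicates came from separate cultures, so p-values measure the spread between these libraries, which may be technical. CUT&RUN, which cuts out chromatin bound by an antibody, gave peak lists for H3K27me3, Suz12, Ezh2 and Ring1B.

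Depth recovered from the files was 5005160 to 21999700 reads in the DMSO and GSK343 libraries, 7169950 to 28473000 reads in the wild type and mutant libraries and 2265130 to 8341760 reads in the replated libraries. Ezh2 itself was at 18.3 to 26.5 RPKM (reads scaled to gene length and library size) in the 9 mutant libraries and at 37.2 to 62.5 RPKM in the 9 wild-type ones. The share of reads on the ribosomal precursor Rn45s reached 57.9% in wild-type day 4 library 2. In the wild type and mutant set this share went with the replicate number in both genotypes. It was 6.02 to 13.4% in libraries numbered 1, 18.3 to 57.9% in those numbered 2 and 4.08 to 5.63% in those numbered 3. The labels name no batch. Among the wild-type libraries, ES cell library 3 and day 8 library 3 stood apart. ES cell library 3 held 629 RPKM summed over 12 fibroblast and mesenchyme markers against 47.0 and 34.7 in libraries 1 and 2. Day 8 library 3 held 614 RPKM summed over 10 pluripotent cell markers against 60.8 and 62.0 in the others. Limma results of Hox genes, cofactors, upstream regulators and neighbours that rest on them are also given without them.

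Every Hox cluster lay inside an H3K27me3 domain in wild-type cells. In the list merged over ES cells, day 4 and day 8, 1 peak spanned the whole of each cluster from the first to the last listed gene, leaving out the distant Hoxb13, and these peaks ranked 1 (HoxC), 3 (HoxA), 4 (HoxB) and 6 (HoxD) by width among 11884. In mm10, as the files give positions, they ran over 189 kb at chr6:52139799-52329263 (HoxA), 162 kb at chr11:96223854-96385751 (HoxB), 263 kb at chr15:102894913-103157594 (HoxC) and 139 kb at chr2:74642954-74781881 (HoxD). Counting a gene as marked when a peak met its span widened by 1000 bases, 38 of the 38 genes were marked by H3K27me3, against 29.5% of 21883 protein-coding genes in RefSeq. The authors' own column for PRC2 targets, in the replating table, read YES for 31 of 31 Hox genes with a row and for 32.2% of its 14833 genes.

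Ring1B and Suz12 also covered the clusters in single broad peaks. The widest 4 peaks of the merged Ring1B list (782 peaks) and the widest 4 of the merged Suz12 list (491 peaks) were those over HoxC, HoxA, HoxB and HoxD, in that order. Ring1B peaks met 38 of 38 Hox genes (3.93% of coding genes) and Suz12 peaks 36 of 38 (2.33% of coding genes). The genes without a peak in the merged Suz12 list were Hoxb1 and Hoxd1, the paralog 1 genes at the 3′ ends of their clusters: the nearest merged Suz12 peak lay 5.56 kb from Hoxb1 and 7.46 kb from Hoxd1, while H3K27me3 and Ring1B covered both. In single-library Suz12 lists of day 8, peaks covered 100% of both genes in wild-type library 2. They covered 35.6% of Hoxb1 and 8.6% of Hoxd1 in mutant library 2, and 0% of both in mutant library 1. In ES cells Hoxd1 cover was 0% in wild-type library 2, 23.8% in mutant library 1 and 0% in mutant library 2. The wild-type lists had a median peak width of 1001 bases and the mutant ones 501. These shares therefore cannot be read as a difference between genotypes. The Ezh2 list was more broken up, with 3 to 10 peaks per cluster covering 50.9% of HoxD to 83.7% of HoxA, and it met 35 of 38 genes (1.81% of coding genes). Hoxb1, Hoxd1 and Hoxd4 were the ones it missed.

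The bases just upstream of 6 genes are shown because they lay under these domains yet differ in sequence: Hoxb1 and Hoxd1 lie outside the merged Suz12 peaks, Hoxa2, Hoxd8 and Hoxd9 lie inside all 4 kinds of peak and, like the paralog 1 genes, rose by day 8 in DMSO, and Hoxd13 lies inside all 4 and did not pass the test for a rise. Each runs 5′ to 3′ towards the start site on the gene's own strand, from RefSeq promoters of build GRCm38.p6 (the assembly of mm10), with every CG dinucleotide in capitals.
Hoxb1: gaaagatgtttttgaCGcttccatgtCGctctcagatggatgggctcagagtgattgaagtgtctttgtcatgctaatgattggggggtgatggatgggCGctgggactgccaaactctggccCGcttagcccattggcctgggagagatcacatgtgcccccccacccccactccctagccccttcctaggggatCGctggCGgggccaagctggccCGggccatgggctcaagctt
Hoxd1: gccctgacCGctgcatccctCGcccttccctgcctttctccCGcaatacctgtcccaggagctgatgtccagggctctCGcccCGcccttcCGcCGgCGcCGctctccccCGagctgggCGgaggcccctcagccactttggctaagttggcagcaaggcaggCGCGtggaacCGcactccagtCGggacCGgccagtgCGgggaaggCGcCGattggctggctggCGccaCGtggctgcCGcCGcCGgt
Hoxa2: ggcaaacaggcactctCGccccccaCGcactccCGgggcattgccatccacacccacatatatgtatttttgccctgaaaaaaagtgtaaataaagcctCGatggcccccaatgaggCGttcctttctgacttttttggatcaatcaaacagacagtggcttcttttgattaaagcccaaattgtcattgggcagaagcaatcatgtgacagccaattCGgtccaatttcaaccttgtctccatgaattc
Hoxd8: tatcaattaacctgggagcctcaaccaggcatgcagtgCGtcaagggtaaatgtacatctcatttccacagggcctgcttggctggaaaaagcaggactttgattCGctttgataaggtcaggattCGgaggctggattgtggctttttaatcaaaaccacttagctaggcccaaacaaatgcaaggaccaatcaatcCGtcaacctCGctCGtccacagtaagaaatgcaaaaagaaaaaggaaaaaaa
Hoxd9: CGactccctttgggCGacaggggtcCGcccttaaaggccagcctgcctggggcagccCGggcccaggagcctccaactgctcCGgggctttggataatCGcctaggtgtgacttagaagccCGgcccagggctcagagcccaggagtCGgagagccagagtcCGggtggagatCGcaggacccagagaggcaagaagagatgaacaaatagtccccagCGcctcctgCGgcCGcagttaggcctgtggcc
Hoxd13: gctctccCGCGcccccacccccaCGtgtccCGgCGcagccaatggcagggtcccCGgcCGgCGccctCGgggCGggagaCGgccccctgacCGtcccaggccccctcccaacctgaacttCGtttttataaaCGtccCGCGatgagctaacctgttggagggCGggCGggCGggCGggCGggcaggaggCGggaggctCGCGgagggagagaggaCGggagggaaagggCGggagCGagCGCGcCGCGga
They lie at chr11:96365508-96365745 (Hoxb1, plus strand), chr2:74762730-74762979 (Hoxd1, plus), chr6:52164832-52165081 (Hoxa2, minus), chr2:74704365-74704614 (Hoxd8, plus), chr2:74697513-74697762 (Hoxd9, plus) and chr2:74667975-74668224 (Hoxd13, plus). The Hoxd1 stretch also falls within the annotated span of the antisense RNA gene Haglr, and the Hoxd8 stretch within that of Gm38462. CG count was 31 upstream of Hoxd13, 24 of Hoxd1, 13 of Hoxd9, 7 of Hoxb1, and 6 of both Hoxa2 and Hoxd8, so genes with the same response at day 8 had both CG-rich and CG-poor upstream stretches. RefSeq promoters were matched for 22 of the 38 genes (24 promoters), with a median of 12.5 CG in the 250 upstream bases against 6 over 32851 promoters. On either strand, the retinoic acid receptor half-site AGGTCA occurred in 6 of the 24 (14.0% of all promoters), TATAAA in 4 of 24 (12.4%) and TGATTGAT, a Hox and Pbx binding motif, in 2 of 24 (0.67%). Letter matches describe sequence and do not show binding.

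**Figure D1:**
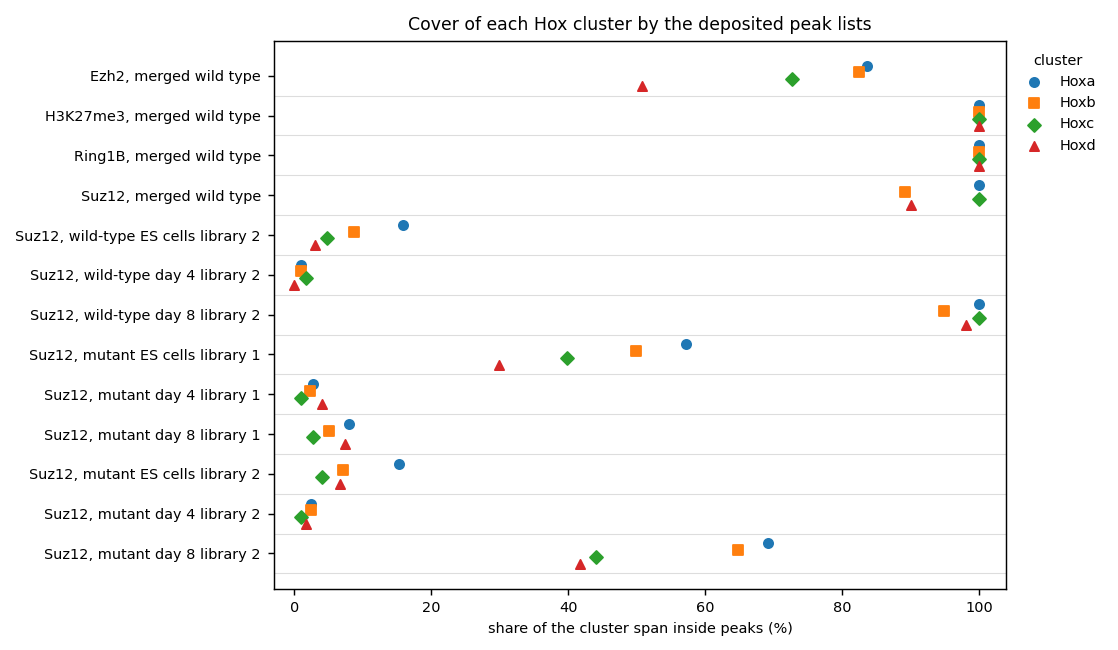
Share of each Hox cluster (%, x axis) that lies inside peaks of each deposited list (rows), with 1 marker per cluster. The 4 merged wild-type lists and the wild-type day 8 list sit between 50.9% and 100%, and the other single-library Suz12 lists spread from 0% to 69.1%.

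Suz12 peak lists of single libraries differed widely at the clusters. In wild-type cells library 2 the list met 18 of 38 Hox genes in ES cells, 4 at day 4 and 38 at day 8, and in mutant cells it met 34 and 22 (libraries 1 and 2) in ES cells, 16 and 9 at day 4, and 19 and 36 at day 8. Mutant libraries of 1 stage differed from each other: HoxA cover at day 8 was 7.95% in mutant library 1 and 69.1% in library 2. Peak size also differed between lists, with a median width of 1001 bases in the wild-type lists and 501 in the mutant ones, and the day 4 wild-type list had only 1000 peaks. With 1 single-library wild-type list per stage analysed here, no test between genotypes was made. The wild-type day 8 list shares peak ends with 417 of the 491 merged Suz12 peaks and is not independent of them.

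In DMSO, Hox genes were near 0 at day 4 and the low-numbered ones had risen by day 8. Of 14 Hox genes tested, 10 rose and 0 fell between day 4 and day 8 (limma with Benjamini-Hochberg adjustment, 23.3% of 14016 genes rose): Hoxa2, Hoxb1, Hoxb2, Hoxb3, Hoxb4, Hoxd1, Hoxd3, Hoxd4, Hoxd8 and Hoxd9. By paralog number these were 8 of 8 tested genes numbered 1 to 4, 1 of 2 numbered 5 to 8 and 1 of 4 numbered 9 to 13. The filter on low values was passed by 8 of the 10 only through the DMSO day 8 libraries. Their count among tested genes is therefore a description. Without the filter the same 10 were called, but that fit too held only the 15 Hox genes with a row. Hoxa3, Hoxa4 and Hoxc4, also numbered 1 to 4, had none, so the split by paralog number is a description as well. In 11 of 14 genes the DMSO day 8 libraries lay above the day 4 ones without overlap (42.1% of all genes).

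In GSK343 no such rise passed the test. At day 8 the same 10 genes were lower in GSK343 than in DMSO and 0 were higher (16.0% of 14016 genes were lower), and in 12 of 14 the GSK343 libraries lay below DMSO without overlap (32.0% of all genes). Both comparisons use the DMSO day 8 libraries, so they are not independent. Between day 4 and day 8 in GSK343, 0 of 14 Hox genes passed the test (limma, against 0.706% of all genes), 0 had an unadjusted p under 0.05, and voom on recovered reads also called 0. The difference itself was tested: the GSK343 effect at day 8 was lower than that at day 4 in the same 10 genes (6.51% of all genes). Here too 8 of the 10 passed the filter on low values only through the DMSO day 8 libraries. The counts of lower genes are therefore a description. Without the filter the same 10 were called at day 8 and for the difference, again among only the 15 Hox genes with a row.

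**Figure D2:**
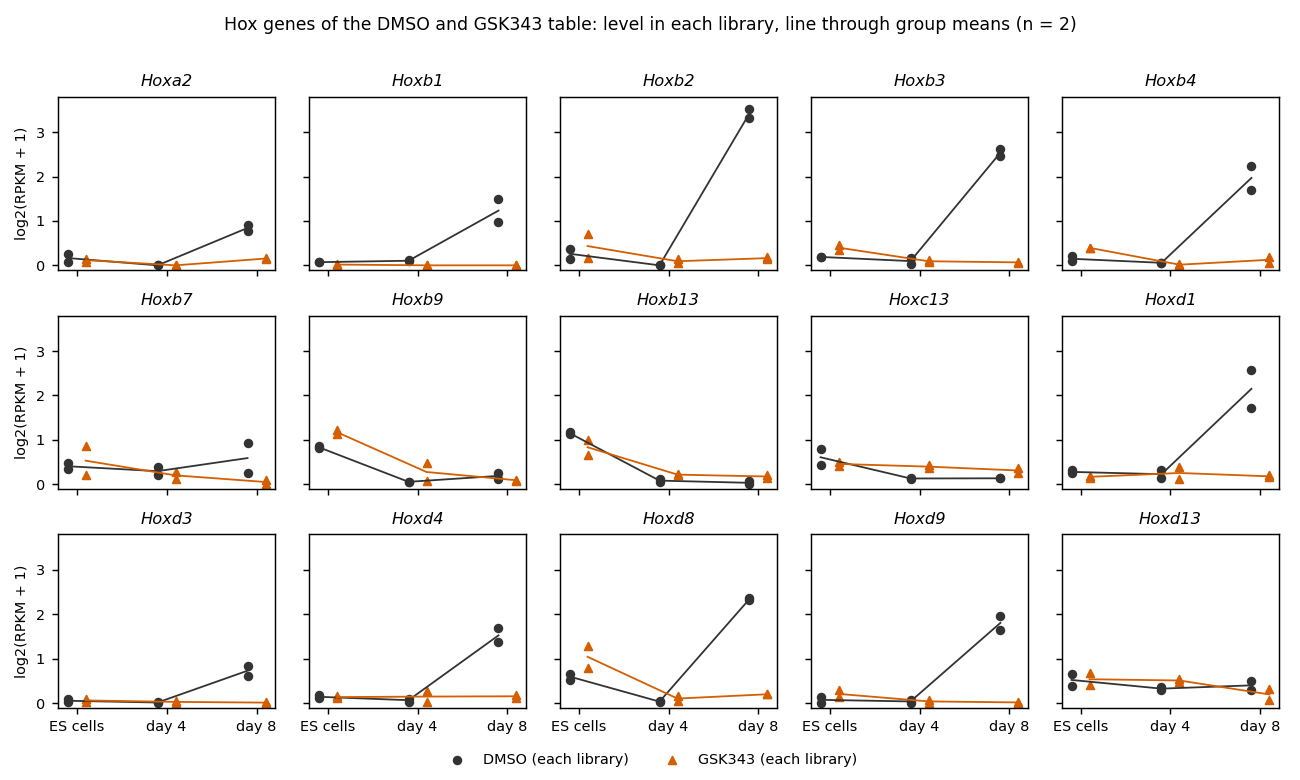
Level of each of the 15 Hox genes with a row, as log2(RPKM + 1) (y axis), in ES cells and embryoid bodies of day 4 and day 8 (x axis). Points are libraries and lines join group means of 2. DMSO day 8 stands above the other groups for Hoxa2, Hoxb1 to Hoxb4, Hoxd1, Hoxd3, Hoxd4, Hoxd8 and Hoxd9.

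Hoxb2, a regulator of hindbrain segments and the highest Hox gene at this stage, was at 8.93 and 10.6 RPKM in the DMSO day 8 libraries, at 0 in both DMSO day 4 libraries, and at 0.14 and 0.0992 RPKM in the GSK343 day 8 libraries. Its mean level at day 8 in DMSO was 81.7-fold that in GSK343 (541 against 8 reads) and at least 103-fold that at day 4, where 0 reads allow up to 3 per library. On the log2(RPKM + 1) scale the GSK343 difference was -3.26 (SE 0.17, n = 2 per group, limma adjusted p = 9.32e-07). Hoxb3, its neighbour, was at 5.12 and 4.52 RPKM in DMSO against 0.0366 and 0.0579 in GSK343, a difference of -2.47 (SE 0.11, limma adjusted p = 3.52e-07). Hoxb4, a gene known for expanding blood stem cells when overexpressed, was at 2.25 and 3.71 RPKM against 0.142 and 0.0420 (difference -1.84, SE 0.16, limma adjusted p = 1.98e-05). No library of 1 treatment reached the range of the other for these 3 genes. Hoxb1, which marks hindbrain rhombomere 4, was at 1.82 and 0.961 RPKM in DMSO and at 0 in both GSK343 libraries, at least 19.4-fold higher in DMSO.

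Within HoxD, Hoxd8, Hoxd1 and Hoxd9 led. Hoxd8, a gene of the middle of the cluster, was at 4.17 and 3.99 RPKM in DMSO day 8 and at 0.147 and 0.150 in GSK343 (difference -2.15, SE 0.16, limma adjusted p = 6.45e-06). Hoxd1, at the early end, was at 4.97 and 2.3 RPKM against 0.146 and 0.116 (difference -1.97, SE 0.23, limma adjusted p = 0.000138). Hoxd9, of the paralog group used in the posterior trunk and limbs, was at 2.90 and 2.15 RPKM against 0.0216 and 0 (difference -1.79, SE 0.13, limma adjusted p = 5.85e-06). In each the treatments were apart in every library. The other 4 called genes, Hoxa2, Hoxb1, Hoxd3 and Hoxd4, differed by -0.69 to -1.37. Hoxb7 was at 0.192 and 0.899 RPKM in DMSO, above 0.0716 and 0 in GSK343, without passing (difference -0.54, SE 0.24, limma adjusted p = 0.109), and without DMSO day 8 library 1 it was called (-0.88, limma adjusted p = 0.0266). DMSO library 1 was the higher for Hoxd1, Hoxb1 and Hoxd9 and library 2 for Hoxb2 and Hoxb4.

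The highest-numbered genes did not follow this. Hoxd13, the terminal gene of its cluster, was at 0.417 and 0.230 RPKM in DMSO day 8 and 0.256 and 0.0434 in GSK343, which overlap (difference -0.21, SE 0.15, limma adjusted p = 0.329). Hoxb13, which lies apart from the rest of HoxB, was at 0.0445 and 0 RPKM in DMSO and 0.0996 and 0.157 in GSK343, higher in both GSK343 libraries but on 1 against 7 reads (difference 0.14, SE 0.12, limma adjusted p = 0.421). Hoxc13, the 1 HoxC gene with a row in this table and too low for the test, was at 0.1 and 0.0938 RPKM in DMSO and 0.280 and 0.199 in GSK343.

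Markers of several cell types moved with the Hox genes at day 8. At that stage 16.0% of all genes were lower in GSK343 and 15.6% higher. The 10 pluripotent cell markers summed to 151 and 132 RPKM in DMSO and to 1153 and 1764 in GSK343, where 9 of 10 were higher. The 12 fibroblast and mesenchyme markers summed to 114 and 267 RPKM in DMSO and to 8.35 and 33.9 in GSK343, with 8 of 12 lower, and 5 of 6 blood and endothelium markers, 4 of 5 cardiac markers and 5 of 6 visceral endoderm markers tested were lower as well. Of 4 neural markers tested, 3 were higher in GSK343. Their part in the Hox result was not tested, and in bulk RNA fewer cells that use a gene and less RNA per cell cannot be told apart.

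Genes for Hox cofactors were lower in GSK343 as well. The lists of cofactors, upstream regulators and neighbours were drawn up with earlier results known. Over all genes at day 8, 16.0% were lower in GSK343 and 15.6% higher. The Hox cofactors of the TALE class (Pbx, Meis and Pknox families), which bind DNA beside Hox proteins, were lower in GSK343 at day 8 in 7 of 9 and higher in 1 (Pknox1), with a median difference of -1.21 against 0.00132 over all genes. Meis1 went from 16.5 to 20.3 RPKM in DMSO to 2.51 to 3.01 in GSK343 (difference -2.36, SE 0.30, limma adjusted p = 0.000231), and Meis2 from 9.38 to 10.3 RPKM to 1.5 to 2.48 (difference -1.88). Among upstream regulators 7 of 16 tested were lower and 2 (Rara and Rarg) higher: the retinoic acid receptor Rarb was at 3.29 to 3.41 RPKM in DMSO and 0.313 to 0.385 in GSK343, the retinoic acid synthesis enzyme Aldh1a2 at 2.67 to 5.27 and 0.221 to 0.476, and the posterior factor Cdx2 at 10.5 to 24.1 and 0.126 to 0.657. These 3 did not overlap between treatments.

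Transcripts in and beside the clusters gave both directions: of 14 tested, 4 were lower in GSK343 and 3 higher (16.0% of all genes were lower and 15.6% higher). Hotairm1, a noncoding RNA of the 3′ end of HoxA, was at 15.9 to 20.1 RPKM in DMSO and 1.26 to 3.83 in GSK343. Hoxb3os was at 2.91 to 3.82 RPKM in DMSO and at 0 in both GSK343 libraries, and Haglr, beside Hoxd1, at 0.953 to 1.96 and 0.0220 to 0.0926. Halr1, downstream of HoxA, went the other way, with 0 to 0.109 RPKM in DMSO and 4.66 to 11.4 in GSK343. The labels do not say whether the authors counted by strand, so reads of Hoxb3 and Hoxb3os, or of Hoxd1 and Haglr, cannot be told apart where they overlap. The spans of Hoxb3 and Hoxb4, and of Hoxd3 and Hoxd4, also overlap.

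ES cells carried a different Hox profile, low and weighted to higher numbers. In DMSO the highest were Hoxb13 at 1.20 and 1.25 RPKM and Hoxb9 at 0.754 and 0.812, followed by Hoxc13 at 0.349 and 0.721 and Hoxd8 at 0.445 and 0.587, which overlap. Hoxb13, Hoxb9 and Hoxd8 fell by day 4 in DMSO (15.7% of all genes fell), by 1.07 (Hoxb13), 0.78 (Hoxb9) and 0.56 (Hoxd8) on the log2 scale, and the same 3 fell in GSK343 (12.3% of all genes), by 0.62, 0.90 and 0.94. The Hoxd8 fall in DMSO lost its call without DMSO day 4 library 1, without DMSO ES cell library 2 or without DMSO day 4 library 2. At day 4 Hoxb13 was at 0.0827 and 0.0339 RPKM in DMSO (3 reads in all).

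Fibroblast and mesenchyme markers summed to 79.2 and 105 RPKM in DMSO ES cells and to 11.7 and 11.9 at day 4, and the ES cells were kept on feeders. GSK343 ES cell library 1, with the highest such sum of this table's ES cells (208 RPKM), also had the highest summed Hox level, 7.34 RPKM against 4.63 to 5.04 in the other ES cell libraries. The part of feeder RNA in the ES cell values was not tested.

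GSK343 alone left no called Hox change before day 8. In ES cells 0 of 14 genes passed with limma or with voom (0% of all genes, with 669 genes and 3 Hox genes at an unadjusted p under 0.05), and the lowest p among Hox genes belonged to Hoxd8, at 0.445 and 0.587 RPKM in DMSO and 1.44 and 0.740 in GSK343 (difference 0.44, SE 0.16, limma adjusted p = 0.839). Hoxb9 was at 1.19 and 1.33 RPKM in GSK343 ES cells, above both DMSO libraries, and Hoxb13 at 1.01 and 0.584, below both, without passing. At day 4, 0 of 14 passed with either tool, and 0 had an unadjusted limma p under 0.05 (0.628% of all genes passed). Summed over the 15 genes, day 4 levels were 1.26 and 1.01 RPKM in DMSO and 2.10 and 1.59 in GSK343.

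**Figure D3:**
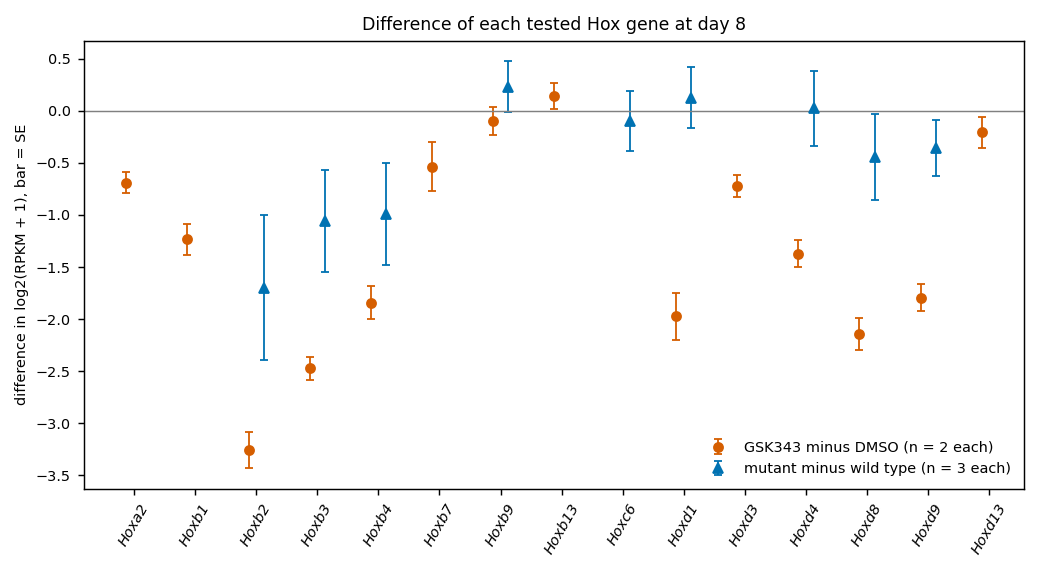
Difference in log2(RPKM + 1) at day 8 (y axis) for each tested Hox gene (x axis), with SE bars, for GSK343 minus DMSO (circles) and mutant minus wild type (triangles). Circles lie between -3.26 and 0.14 with short bars, and triangles between -1.70 and 0.23 with longer bars.

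In the wild-type cells of the second set these genes were high at day 8 in 2 of 3 libraries. Hoxb2 was at 13.8, 10.7 and 0.171 RPKM in wild-type day 8 libraries 1 to 3 and at 0 to 0.0595 at day 4, Hoxb3 at 5.52, 4.51 and 0.0962 at day 8, and Hoxb4 at 4.62, 4.72 and 0.0620. Libraries 1 and 2 were alike and library 3, the one rich in pluripotent cell markers, was low in all 3 genes. The 3 genes rose between day 4 and day 8 (3 of 9 tested, 10.6% of all genes rose), by 2.52 (Hoxb2, SE 0.70), 1.71 (Hoxb3, SE 0.49) and 1.65 (Hoxb4, SE 0.49), with limma adjusted p of 0.0213, 0.0244 and 0.0272. Those calls depend on the libraries: without day 8 library 3, 6 genes rose (Hoxb2, Hoxb3, Hoxb4, Hoxd4, Hoxd8 and Hoxd9), and without each other library of the 2 groups 0 or 1 did. With voom on recovered reads 0 passed.

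Mutant cells showed the same genes in 1 of 3 libraries at day 8. Hoxb2 was at 3.31, 0.118 and 0.227 RPKM in mutant libraries 1 to 3, Hoxb3 at 1.89, 0.257 and 0.199, and Hoxb4 at 1.88, 0.149 and 0.306. Mutant library 1 lay between the high and the low wild-type libraries, so the genotypes overlapped in these genes. Of 9 Hox genes 0 passed between genotypes at day 8 with limma or voom, and 2 had an unadjusted limma p under 0.05 (1.51% of all genes passed). Without overlap 0 of 9 lay below wild type (6.40% of all genes) and 0 above (9.46%). Of the 12 with a row, 1 lay above: Hoxc13, too low for the test. It was at 0.335, 0.315 and 0.570 RPKM in mutant and 0.144, 0.0985 and 0.0654 in wild type. The differences with the lowest p were -1.70 for Hoxb2 (SE 0.70, limma adjusted p = 0.27), -1.06 for Hoxb3 (SE 0.49, 0.337) and -0.99 for Hoxb4 (SE 0.49, 0.377). Without wild-type day 8 library 3 these 3 genes were lower in the mutant, with differences of -2.86, -1.88 and -1.80 (limma adjusted p = 0.00157, 0.00213 and 0.00271). That fit drops the wild-type library low in these genes, chosen after its values were seen. It keeps mutant libraries 2 and 3, which were low too, so it cannot decide whether the genotypes differ.

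Hoxd4 and Hoxd1 were higher in mutant library 1 than in any wild-type library. Hoxd4 was at 2.67 RPKM there and at 1.03 and 1.31 in wild-type libraries 1 and 2, Hoxd1 at 2.09 against 0.658 and 1.29, while Hoxd8 was at 1.42 against 1.86 and 1.61. These genes were singled out after their values were seen, and the comparison rests on 1 mutant library.

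**Figure D4:**
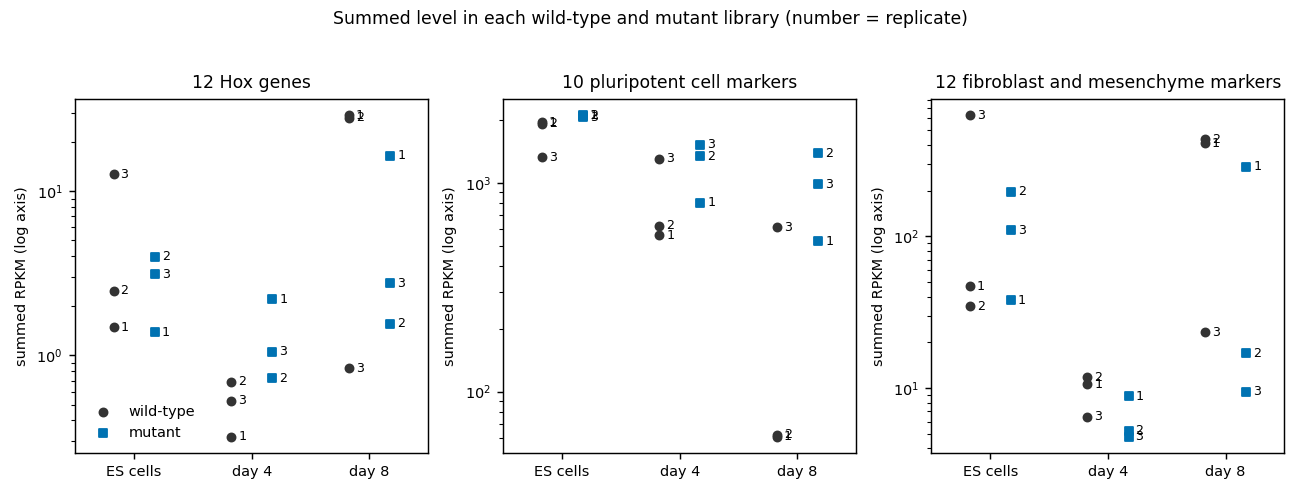
Summed RPKM (log axis) of 12 Hox genes, 10 pluripotent cell markers and 12 fibroblast and mesenchyme markers in each wild-type and mutant library by stage, with the replicate number beside each point. At day 8, wild-type library 3 is low in Hox (0.830 RPKM) and high in pluripotent cell markers (614 RPKM), and mutant library 1 is the highest mutant in Hox (16.4 RPKM).

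The 12 Hox genes summed at day 8 to 28.9, 27.9 and 0.830 RPKM in wild type and 16.4, 1.55 and 2.75 in mutant, the fibroblast and mesenchyme list to 410, 438 and 23.3 and to 288, 16.9 and 9.44, and the pluripotent list to 60.8, 62.0 and 614 and to 525, 1390 and 986. The 3 libraries with high Hox levels were thus the 3 with high mesenchyme markers. The part of these cell populations in the Hox values was not tested.

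At the other stages of this set Hox genes were low. Hoxb9 fell from ES cells to day 4 in wild type (1 of 9, 4.39% of all genes fell), from 0.327, 1.15 and 2.28 RPKM to 0, 0.216 and 0.0599 (difference -0.95, SE 0.24, limma adjusted p = 0.0252), and the call was lost without either of ES cell libraries 2 and 3 or either of day 4 libraries 1 and 2. In wild-type ES cell library 3, with its high fibroblast markers, Hoxc8 was at 2.76 RPKM against 0.197 and 0.175 in the others, and Hoxd8 at 2.5 against 0.0963 and 0.0958. Its 12 Hox genes summed to 12.7 RPKM against 1.48 and 2.46. With limma and with voom, and at an unadjusted limma p under 0.05, mutant against wild type gave 0 of 9 in ES cells (0.0917% of all genes) and 0 of 9 at day 4 (0.0494%), and without wild-type ES cell library 3 the ES cell differences of Hoxd8 (-0.23) and Hoxc6 (-0.14) turned to 0.33 and 0.21. By the same 3 measures mutant cells had 0 of 9 called from ES cells to day 4 (6.37% of all genes) and 0 of 9 from day 4 to day 8 (10.3%). The genotype effect at day 8 minus that at day 4 was called for 0 of 9 by these measures too (0% of all genes, 370 of which had an unadjusted p under 0.05), and without wild-type day 8 library 3 limma also called 0 of 9, with -2.84 for Hoxb2 (limma adjusted p = 0.0576). At day 4, 3 of 9 (Hoxb4, Hoxd1 and Hoxd4) lay above wild type in the mutant without overlap (4.83% of all genes) and 0 below (4.41%). Levels were low: Hoxd1 was at 0.806, 0.291 and 0.217 RPKM in mutant and 0.162, 0.157 and 0.0694 in wild type. In wild-type day 4 library 2, 3 reads of Hoxd1 equal 0.470 RPKM.

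Some cofactors, upstream regulators and neighbours rose in wild-type cells. From day 4 to day 8, 4 of 9 cofactors rose (Pbx2, Pknox2, Meis2 and Meis1) and Pknox1 fell, 3 of 16 upstream regulators rose (Rarb and Cyp26a1 among them) and 3 of 13 neighbours rose (Hotairm1, Calcoco1 and Hoxb3os), where 10.6% of all genes rose. Without wild-type day 8 library 3, 5 of 9, 4 of 16 and 4 of 13 rose (15.7% of all genes). Between genotypes at day 8, 0 of 9, 0 of 16 and 0 of 13 passed. Without that library 5 of 9 cofactors, 3 of 16 regulators and 2 of 13 neighbours were lower in the mutant and 0 higher (3.41% of all genes were lower). That fit leaves out a library rich in pluripotent cell markers from wild type only, so it cannot decide whether the genotypes differ. Meis1 ranged from 0.890 to 29.2 RPKM in wild type and from 2.5 to 20.8 in mutant.

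Replated cells had a broad Hox profile centred on the middle of the clusters. In cells kept in DMSO, Hoxc8, a patterning gene of the thorax, was highest at 21.7, 35.2 and 32.7 RPKM, above 86.7% of genes, followed by Hoxc6 at 13.5, 27.1 and 30.1, Hoxb9 at 13.5, 32.6 and 23.4 and Hoxc10 at 8.65, 18.5 and 11.6. The spreads of Hoxc8, Hoxc6 and Hoxb9 overlap. Genes numbered 5 to 8 summed to 69.5 to 124 RPKM, those numbered 9 to 13 to 31.4 to 78.1 and those numbered 1 to 4 to 13.7 to 30.4. By cluster the highest were Hoxa10 (2.46, 4.43 and 3.28 RPKM) in HoxA, with Hoxa5 (2.94, 2.75 and 4.44) in the same range, Hoxb9 in HoxB, Hoxc8 in HoxC and Hoxd8 (4.60, 7.22 and 6.43) in HoxD.

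That profile differed from day 8 embryoid bodies, where genes numbered 1 to 4 made up 26.8 and 25 of 34.7 and 32.6 RPKM in DMSO. By their labels the replated cells were of day 14. The tables were normalized separately and list different genes, so levels are set side by side with no test. Hoxa9 was at 0.513, 1.52 and 0.982 RPKM in cells kept in DMSO, and Hoxb13 had no row in the replating table.

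Giving GSK343 before replating went with lower Hox levels that did not pass the test. Cells grown in GSK343 and replated in DMSO had summed Hox levels of 39.7, 58.2 and 153 RPKM against 115, 205 and 209 in cells kept in DMSO. In that comparison 30 of 31 Hox genes had a negative difference, with a median of -0.90 against -0.087 over all genes, 10 of 31 lay below without overlap (20.7% of all genes) and 0 passed with limma or voom (0% of 14367 genes, with 3385 genes and 9 Hox genes at an unadjusted p under 0.05). With GSK343 also after replating, sums were 85.6 and 40.7 RPKM against 155, 202 and 228 in cells given GSK343 only after. There 31 of 31 differences were negative with a median of -0.94 against 0.011 over all genes, 18 of 31 lay below without overlap (14.1% of all genes), and 0 passed with limma or voom (0% of all genes, with 2633 genes and 14 Hox genes at an unadjusted p under 0.05).

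Hoxc8 was at 6.06, 5.62 and 19.6 RPKM after GSK343 and then DMSO, all below cells kept in DMSO (difference -1.61, SE 0.54, limma adjusted p = 0.169). Hoxa6, a low gene, was at 0, 0.681 and 0.358 RPKM (0, 2 and 2 reads) against 1.18, 2.44 and 3.83. Its difference was -1.33 (SE 0.34, limma adjusted p = 0.169). It was called only when DMSO then DMSO library 1 was left out (-1.63, limma adjusted p = 0.018). Recovered Hox counts in GSK343 then DMSO library 2 were almost all even. Counts there may therefore move in steps of 2 reads and carry less evidence than their number, which was not tested. Hoxb2 was at 0.944, 0.390 and 3.08 RPKM against 3.05, 4.71 and 6.94, which overlap by a narrow margin (-1.35, SE 0.48, limma adjusted p = 0.169). GSK343 then DMSO library 3 was the highest of its group for Hoxc8 and Hoxb2, and library 2 for Hoxa6. Hoxb4 was the exception in direction, at 1.80, 6.68 and 14.1 RPKM against 2.36, 4.81 and 4.33.

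In cells kept in GSK343 after replating, Hoxb2 was at 1.36 and 0 RPKM (5 and 0 reads) where GSK343 came first. It was at 6.37, 3.65 and 5.73 where DMSO came first (-2.0, SE 0.54, limma adjusted p = 0.127). Hoxb8 was at 2.17 and 1.10 RPKM against 5.59, 12 and 7.48 (-1.80, SE 0.52, limma adjusted p = 0.139), and Hoxc8 at 14.2 and 3.38 against 22.7, 28.8 and 40.2 (-1.91, SE 0.60, limma adjusted p = 0.148). Each group lay apart for these 3 genes. Without GSK343 then GSK343 library 1, a fit that takes the spread of the single remaining library from the other groups called 4 genes (Hoxb2, Hoxc8, Hoxc9 and Hoxd8).

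**Figure D5:**
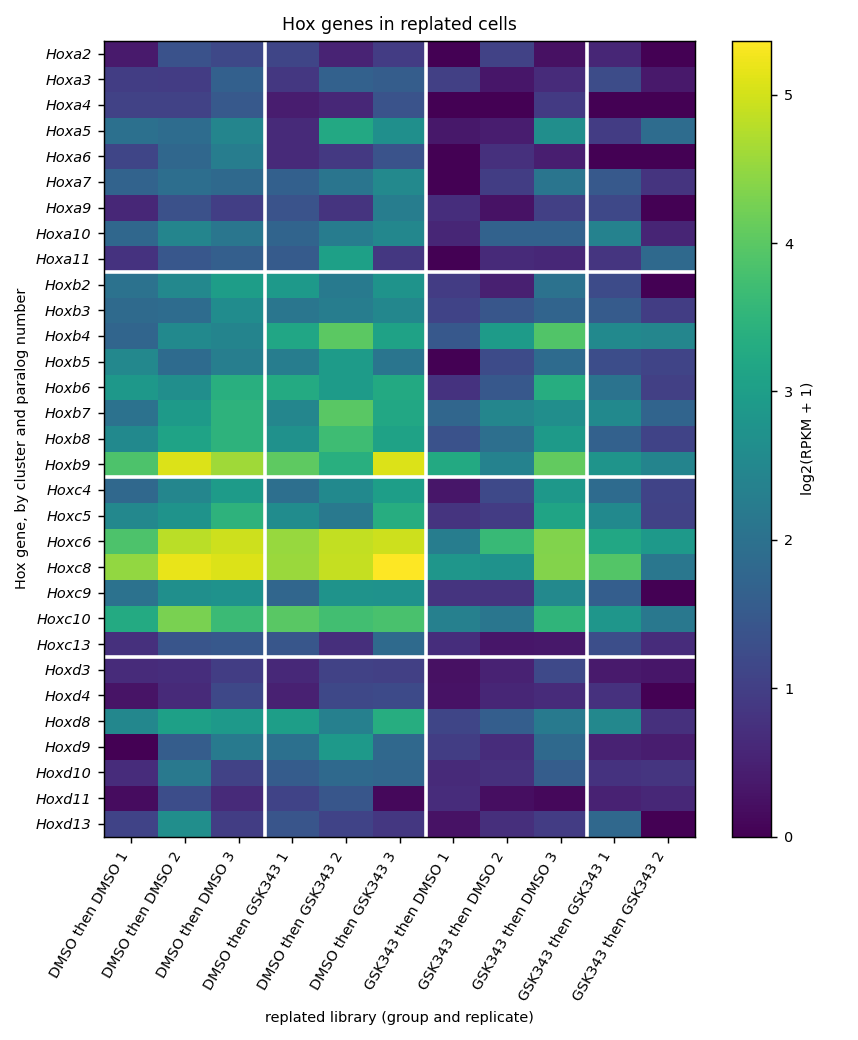
Level of 31 Hox genes (rows, by cluster and paralog number) in 11 replated libraries (columns, by group and replicate) as log2(RPKM + 1), shown by colour. Hoxb9, Hoxc6, Hoxc8 and Hoxc10 are the brightest rows, and columns with DMSO before replating are brighter than most columns with GSK343 before it.

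GSK343 after replating had no called effect on Hox genes with limma or with voom. In cells that had DMSO first, 0 of 31 Hox genes passed (0% of all genes, with 328 genes and 2 Hox genes at an unadjusted p under 0.05), and 24 of 31 differences were above 0 with a median of 0.13, where the median of all genes was -0.23. That shift of all genes was -0.070 after upper quantile scaling. In cells that had GSK343 first, 0 of 31 passed (0% of all genes, 196 with an unadjusted p under 0.05), with medians of -0.16 for Hox genes and -0.11 for all genes. The difference of these effects was called for 0 of 31 (0% of all genes, 187 with an unadjusted p under 0.05), and there the median of all genes was 0.13. Hoxb4 was at 8.08, 15.1 and 7.56 RPKM after DMSO and then GSK343 against 2.36, 4.81 and 4.33 in DMSO throughout, apart in every library but not past the test (1.20, SE 0.54, limma adjusted p = 0.885).

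Marker sums differed between the replated groups as well. Pluripotent cell markers summed to 676, 87.8 and 138 RPKM in cells kept in DMSO, 129, 77.3 and 119 in DMSO then GSK343, 865, 1225 and 724 in GSK343 then DMSO, and 598 and 1258 in GSK343 throughout. The 12 fibroblast and mesenchyme markers summed to between 746 and 7252 RPKM over the 11 libraries, with 1606 to 7252 where DMSO came first and 746 to 2662 where GSK343 came first. The lowest Hox sum with DMSO first, 115 RPKM, was in the library with the highest pluripotent sum of those 6. Their part in the Hox values was not tested.

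The authors' deposited table, computed from the same libraries, called more Hox genes in several steps. From day 4 to day 8 it listed 10 of 15 as higher and 0 as lower in DMSO (20.9% of its genes were higher), 10 of 12 as higher in wild type (11.2%) and 8 of 12 as higher in mutant cells (9.13%), and in GSK343 0 as higher and 1, Hoxd13, as lower (1.27% lower). From ES cells to day 4 it listed 6 of 15 as lower in DMSO (17.02% of its genes), 7 of 15 in GSK343 (11.5%), 8 of 12 in wild type (8.04%) and 5 of 12 in mutant cells (5.44%), where Hoxd1 was listed as higher. For replated cells it listed Hoxa6 as lower with GSK343 before and DMSO after (log2 fold change -2.53, with 2.89% of its genes lower), and Hoxb2 (-2.78), Hoxb8 (-2.28) and Hoxd9 (-3.07) as lower with GSK343 before in cells replated in GSK343 (0.654% of its genes).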

How the data were processed

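RNA values were deposited by the authors as RPKM per gene in 3 tables, one each for the DMSO and GSK343, the wild type and mutant and the replated libraries; 41 of 42 RNA libraries had values, and the third library of cells in GSK343 throughout was not analysed here. The authors' deposited tables also hold their own log2 fold changes and adjusted p-values, used only where named. Alignment with STAR 2.5.3, counting with featureCounts 1.6.1, edgeR, Bowtie2 2.3.4.3, HOMER 4.10.3 and build mm10 are named in the submitters' processing notes. Low RPKM values were whole multiples of 1 read within 0.02 of a whole number, which gave the reads per library.

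Each table was fitted separately with limma 3.58.1 (R 4.3.3, trend) on log2(RPKM + 1), all groups in 1 fit, for genes that reached 0.5 RPKM in a number of libraries no lower than the size of the smallest group, with Benjamini-Hochberg adjustment over all genes tested and a threshold of 0.05. A fold change on this scale understates changes of low genes. The script was tested on simulated data. Alternatives were a pseudocount of 0.1, no filter, a filter of 1 RPKM, a replicate block, only the groups compared, 0.75 quantile scaling, voom on recovered reads and each library left out; counts of other gene lists without wild-type library 3 were added after seeing the data. A fold against 0 reads uses a floor of 3 reads per library and covers counting error only. Peak positions come from the authors' deposited peak lists. Genes were named where they passed a test, and otherwise the 3 with the lowest p of a comparison; others are named for their role or place in a cluster. The members and lists were chosen with earlier results of these data known.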

Additional observations from a re-analysis of the deposited data

Results flagged for a closer look

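The GSK343 effect differed between day 8 and day 4 for 10 Hox genes by the test of the difference itself (limma on log2(RPKM + 1), 2 libraries per group, adjusted p from 1.33e-05 to 0.0125). Of these, 8 passed the filter on low values only through the DMSO day 8 libraries, so the count is a description. The effect at day 8 minus that at day 4 was -3.35 for Hoxb2, -2.47 for Hoxb3, -2.21 for Hoxd8, -2.0 for Hoxd1, -1.80 for Hoxb4 and -1.79 for Hoxd9. It was -1.45 for Hoxd4, -1.13 for Hoxb1, -0.73 for Hoxd3 and -0.69 for Hoxa2. The call for Hoxa2 was lost without either DMSO day 4 library and with voom on recovered reads, that for Hoxd3 without DMSO day 4 library 2, and that for Hoxb4 with voom (adjusted p = 0.0925).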

How the results depend on the processing

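Of the alternative values for counts of Hox genes, 283 stayed within 1.5 times the reported count and 26 did not. For the 82 gene results named by the rule in the methods, 980 alternative values kept their direction and side of the threshold, 33 lost the call, 6 gained it and 4 reversed; over all tested Hox genes, 13 calls were gained with 1 library left out. The falls from ES cells to day 4 numbered 5 in DMSO and 5 in GSK343, in place of 3, with a pseudocount of 0.1 and with voom. The wild-type fall to day 4 (1 gene) became 0 with a filter of 1 RPKM and with only the groups compared, and ranged from 0 to 1 when single libraries were left out. The wild-type rise to day 8 (3 genes) became 5 with a pseudocount of 0.1 and 0 with only the groups compared or voom, and ranged from 0 to 6 without single libraries. Without single libraries, mutant against wild type at day 8 ranged from 0 to 3, GSK343 before replating from 0 to 1 with DMSO after and from 0 to 4 with GSK343 after. With peaks of at least 1000 bases, Suz12 peaks met 1 Hox gene in mutant day 4 library 1, 5 in day 8 library 1, 9 in ES cell library 2 and 1 in day 4 library 2. Reversed were Hoxb9 in GSK343 from day 4 to day 8 without GSK343 day 4 replicate 1 (without single libraries, from -0.38 to 0.00623), Hoxd8 (from -0.51 to 0.33) and Hoxc6 (from -0.39 to 0.21) in mutant against wild-type ES cells without wild-type ES cell replicate 3, and Hoxc6 there with a pseudocount of 0.1 (0.0146). The causes were not tested.

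The labels' replicate numbers were not taken to pair samples: same-numbered libraries correlated at 0.177 to 0.666 in the DMSO and GSK343 table, -0.26 to 0.81 among wild-type and mutant libraries and -0.48 to 0.54 among replated ones, and 12 of 12, 15 of 18 and 7 of 11 libraries correlated best with their own number. Among DMSO and GSK343 libraries 30 of 30 such pairs were above 0.1, but each comparison there has 2 libraries per group, and the block changed no Hox call among them. A fit with the replicate block moved no count of calls beyond 1.5 times; for the wild-type rise to day 8 it called 4 genes, adding Hoxd9 (0.75, limma adjusted p = 0.0498). Depth limits genes near 0: 3 reads is the level a count of 0 allows.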
